A study of Mus musculus with 11 samples.

Results

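The genes of DNA replication and mitosis were followed mouse by mouse in hepatic sinusoidal ECs of mice raised with or without a microbiota. The 57 genes were chosen by symbol from textbook roles in copying or dividing the chromosomes, 24 for replication and 33 for mitosis, and all 57 were among the 29307 genes of the count table. RNA came from liver ECs of 6 conventionally raised (CONV-R) and 5 germ-free (GF) C57BL/6J males aged 10 to 12 weeks, with 1 library per mouse. GF mice were kept sterile in isolators, CONV-R mice carried a specific pathogen-free microbiota, and neither group had a transgene or received a treatment. Cells were enriched with CD146 beads and sorted as CD31+ CD105+ CD146+, a gate chosen for the sinusoidal endothelium, and cDNA was amplified from 20 ng of total RNA. The paper reports fewer sorted ECs and on average much less RNA from GF than from CONV-R livers, and a low viability of sorted cells. The part of these in the values that follow was not tested.

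A dividing cell first builds the replication machine. Origins are licensed in G1 by loading of the MCM helicase, polymerases and the sliding clamp copy the DNA in S phase, and cyclin B with Cdk1 then drives mitosis, in which kinetochores, kinesins and checkpoint kinases part the chromosomes. Transcription of the replication genes rises ahead of S phase through E2F factors, and that of the mitosis genes rises in G2 through MuvB complexes that bind a promoter element named CHR (cell cycle genes homology region). Sinusoidal ECs of the adult liver are mostly at rest, and divide after loss of liver tissue. In bulk RNA a smaller share of cycling cells and less of a transcript in each cell cannot be told apart.

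The promoters of both groups of genes differed in these elements. RefSeq promoters on GRCm38.p6, from 250 bases before to 50 bases after the start, were at hand for 49 of the 57 genes. Those of 6 genes, picked after their values were seen, are shown from 120 bases before to 30 bases after the start. They run in the direction of transcription and 5′ to 3′. Capitals mark each E2F match (TTCCCGC or TTCGCGC or TTGCCGC or TTGGCGC) and each CHR match (TTTGAA or TTCGAA) on either strand. Where E2F matches overlap, as in the repeated element of *Mcm6*, they form 1 run of capitals. *Mcm6*, *Prim1* and *Rrm1* are replication genes, and *Mki67*, *Ccnb2* and *Cenpa* mitosis genes.
Mcm6, chr1:128359676-128359825, minus strand: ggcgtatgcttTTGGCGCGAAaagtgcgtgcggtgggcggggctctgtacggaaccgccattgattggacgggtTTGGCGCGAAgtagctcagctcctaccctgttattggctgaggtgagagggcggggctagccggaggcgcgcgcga
Prim1, chr10:128015095-128015244, plus strand: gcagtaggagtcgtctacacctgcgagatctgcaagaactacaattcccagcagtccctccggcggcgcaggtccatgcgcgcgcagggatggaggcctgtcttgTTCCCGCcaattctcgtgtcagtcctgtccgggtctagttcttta
Rrm1, chr7:102441575-102441724, plus strand: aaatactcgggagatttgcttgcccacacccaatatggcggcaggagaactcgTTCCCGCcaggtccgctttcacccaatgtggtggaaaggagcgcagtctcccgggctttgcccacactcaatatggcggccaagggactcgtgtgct
Mki67, chr7:135716350-135716499, minus strand: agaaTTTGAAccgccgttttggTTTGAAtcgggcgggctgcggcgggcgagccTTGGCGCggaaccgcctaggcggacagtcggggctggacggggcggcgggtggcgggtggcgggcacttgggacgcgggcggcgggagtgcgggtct
Ccnb2, chr9:70421525-70421674, minus strand: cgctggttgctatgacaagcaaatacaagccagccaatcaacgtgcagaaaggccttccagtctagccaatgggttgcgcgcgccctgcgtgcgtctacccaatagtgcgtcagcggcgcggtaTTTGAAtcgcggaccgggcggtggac
Cenpa, chr5:30666766-30666915, plus strand: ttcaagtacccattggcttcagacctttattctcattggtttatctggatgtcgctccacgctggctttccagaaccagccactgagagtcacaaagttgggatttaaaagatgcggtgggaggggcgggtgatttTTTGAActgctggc

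All 3 replication promoters shown have E2F letters before the start. A further E2F match of *Mcm6* lies after the start, runs past the end of the printed stretch and is not in capitals. In *Ccnb2* and *Cenpa* a CHR match lies just after the start, whereas *Mki67* holds both elements. Over all 20 replication promoters, 15 (75.0%, Wilson 95% interval 53.1% to 88.8%) held an E2F match, against 6 of 29 mitosis promoters (20.7%, 9.85% to 38.4%). The order was the other way for CHR, found in 5 of 20 replication promoters (25.0%, 11.2% to 46.9%) and in 22 of 29 mitosis promoters (75.9%, 57.9% to 87.8%). Among 9521 promoters of tested genes, 19.2% held an E2F match and 16.6% a CHR match, and among all 27025 promoters 10.9% and 21.7%. A CCAAT box, the letters bound by NF-Y, was found in 75.0% of replication and 72.4% of mitosis promoters, and in 42.6% of those of tested genes. Lists of 40 other replication and 40 other mitosis genes showed the same contrast, with E2F matches in 18 of 32 and 6 of 33 promoters and CHR matches in 7 of 32 and 24 of 33. With the stricter E2F spelling of 8 letters, in which another T precedes each of the 4 spellings, 45.0% of replication and 3.45% of mitosis promoters held a match, against 4.66% of those of tested genes. A match is a run of letters and not a measured binding site.

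**Figure D1:**
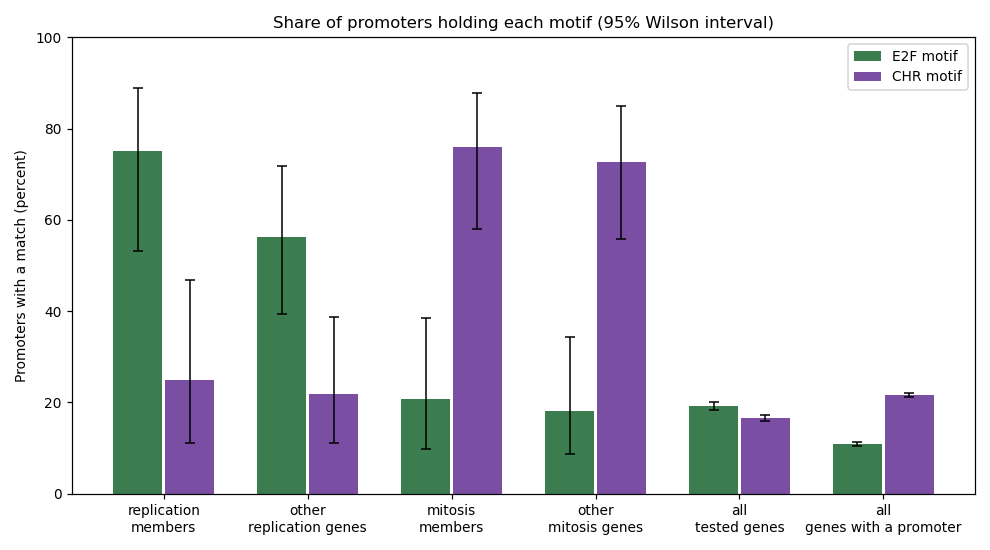
Percent of promoters (y axis) with at least 1 E2F match (green) or CHR match (purple), for the replication and mitosis genes, 2 further lists, all tested genes and all genes with a promoter; whiskers are Wilson 95% intervals. E2F matches are most frequent in replication genes (75.0%) and CHR matches in mitosis genes (75.9%).

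Libraries held 7242717 to 16164588 counts. Levels are given as CPM, counts scaled to a common total with TMM factors, and Log2FC is the log2 fold change of GF over CONV-R from edgeR's quasi-likelihood test over 12905 genes. All 14 liver endothelial markers were present, with summed levels of 31930 to 38778 CPM in CONV-R and 30670 to 43159 CPM in GF mice. None was called, and their median Log2FC was 0.30. At an unadjusted p under 0.05 there were 7 of the 14 (50%), all higher, against 23.0% of all tested genes in either direction. The 10 Kupffer cell markers summed to 86.0 to 222 CPM in CONV-R and 197 to 931 CPM in GF mice, with 7 called higher and GF replicate 6 the highest. The 12 markers of T, NK and B cells summed to 7.15 to 16.0 CPM in CONV-R and 5.12 to 6.95 CPM in GF mice with no overlap. Of these markers 4 passed the filter and 0 were called, and all 4 were lower in sign (median Log2FC -1.20). The 10 erythroid markers, of which 5 passed and 0 were called, summed to 19.4 to 38.1 and 5.15 to 26.2 CPM. The 6 cholangiocyte markers, of which 2 passed and 1, *Spp1*, was called higher, summed to 0.615 to 9.21 CPM in CONV-R and 13.7 to 36.8 CPM in GF mice with no overlap. None of the 8 neutrophil markers passed (0.402 to 3.31 and 0.136 to 1.05 CPM), with *Elane* at 0 in every library. Of the 10 hepatocyte and 8 stellate cell markers 9 and 3 passed, and none was called. Such cells can cycle too, and their part in the values that follow was not tested.

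Of the 57 genes, 52 passed the filter on low counts, namely 23 of 24 replication and 29 of 33 mitosis genes. In GF mice 1 of these 52 genes was lower and 0 were higher at an adjusted p under 0.05. Over all tested genes 7.48% were called, 2.67% lower and 4.80% higher. At an unadjusted p under 0.05 there were 4 of the 52 genes (7.69%), compared to 23.0% of all tested genes. The groups overlapped in all 52 genes, while 2.37% of all tested genes were lower and 3.22% higher in every GF mouse than in every CONV-R mouse. Replication genes had a median Log2FC of -0.18 and 15 of 23 were lower in GF mice in sign. Mitosis genes had a median of -0.08 with 16 of 29 lower in sign, next to -0.01 and 50.9% over all tested genes.

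Each gene's 95% interval shows how large a difference these 11 mice leave possible. It lay inside 1 log2 unit, a 2-fold change, in both directions for 15 of 23 replication genes and 12 of 29 mitosis genes, and for 69.7% of all tested genes. The median SE of the Log2FC was 0.22 for replication and 0.35 for mitosis genes. For the latter a 2-fold difference was therefore often not detectable in these 11 mice.

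**Figure D2:**
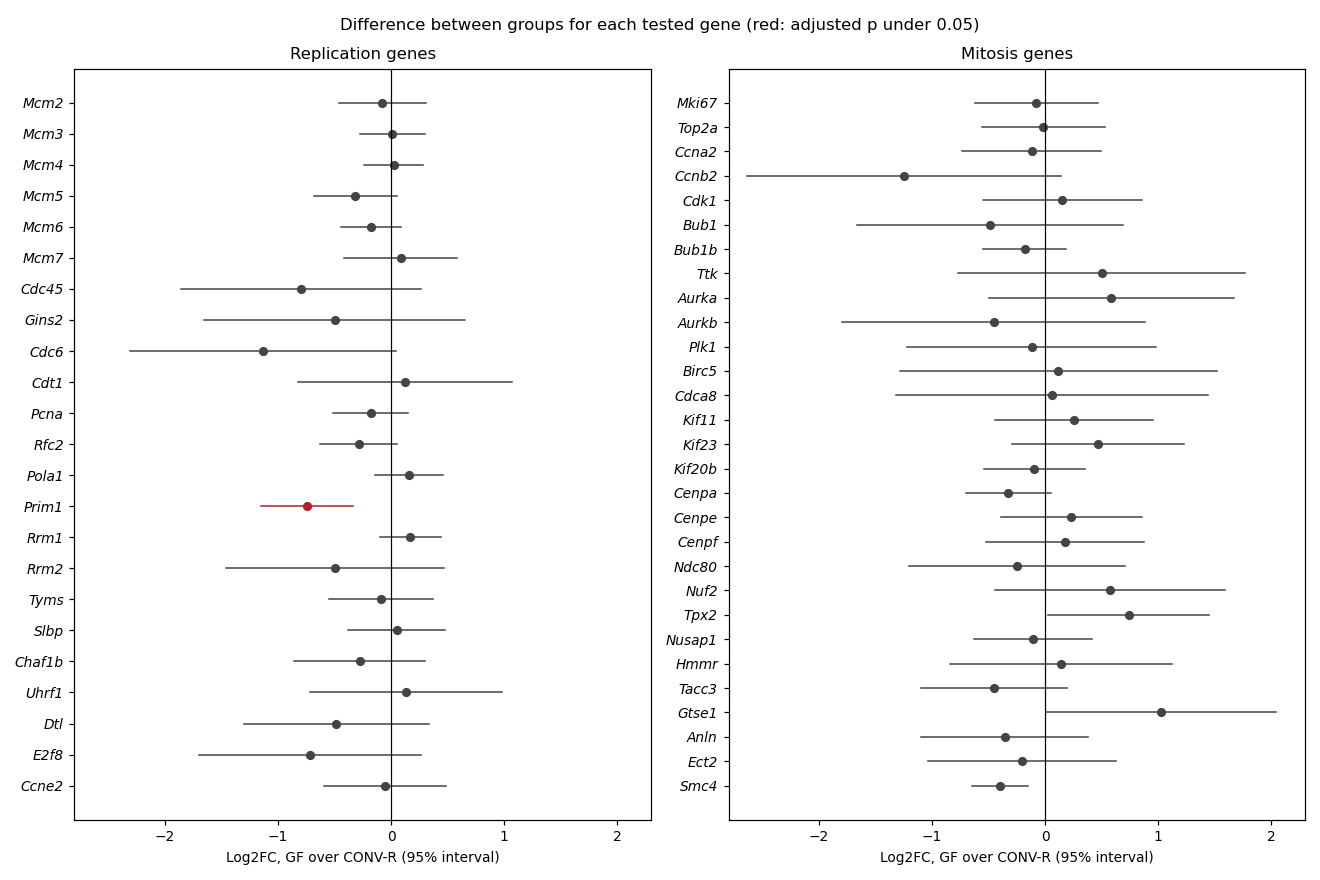
Log2FC of GF over CONV-R mice (x axis, points) with 95% intervals (lines) for the 23 replication and 29 mitosis genes that passed the filter. *Prim1* alone, in red, has an adjusted p under 0.05, and the intervals of most weakly expressed mitosis genes span more than 1 log2 unit on a side.

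*Prim1* was the one gene of the 57 that fell. *Prim1*, the catalytic subunit that lays the RNA primers for polymerase alpha (chr10:128015168-128030037 on GRCm38, plus strand, up to 13 exons), had 9.40, 13.1 and 16.6 CPM as the lowest, median and highest CONV-R value. In GF replicates 1, 2, 4, 5 and 6 its level was 6.69, 6.95, 7.71, 9.52 and 8.55 CPM. Only GF replicate 5 reached into the CONV-R range, and there it passed only CONV-R replicate 4. The Log2FC was -0.74 ± 0.19 (SE), with an adjusted p of 0.0267 (edgeR's quasi-likelihood test, Benjamini-Hochberg). The call was lost when any of CONV-R replicates 2 and 5 and GF replicates 1 and 2 was left out, with adjusted p between 0.0538 and 0.0677 and a Log2FC of -0.69 to -0.74. Without GF replicate 6, the library with the most Kupffer cell RNA, the Log2FC was -0.77 (adjusted p = 0.0423). *Pola1*, the catalytic subunit of polymerase alpha to which primase is bound, had 20.6, 23.7 and 25.9 CPM as lowest, median and highest CONV-R value. Its GF levels were 23.3, 31.7, 22.9, 22.6 and 30.5 CPM, within or above the CONV-R range, with a Log2FC of 0.16 (95% interval -0.14 to 0.46) that was 0.08 without GF replicate 2 and 0.10 without GF replicate 6. *Prim2*, the other primase subunit, is outside the 57 genes and was not called (Log2FC -0.16, 95% interval -0.72 to 0.41).

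The replicative helicase had no called gene among its 8 members. The ring subunits *Mcm3*, *Mcm4* and *Mcm6* were the most abundant of them per length, near the 71st to 82nd percentile of tested genes. *Mcm3* had 52.2, 65.7 and 72.2 CPM as lowest, median and highest CONV-R value and 60.8, 60.4, 80.7, 49.6 and 71.2 CPM in the GF mice. The GF mice spanned the whole CONV-R range, with a Log2FC of 0.01 (95% interval -0.28 to 0.30). *Mcm5*, which had the smallest p of the helicase (unadjusted p = 0.0854), had 11.5, 16.4 and 18.4 CPM in CONV-R mice. Its GF levels of 14.2, 9.85, 11.8, 13.2 and 13.6 CPM overlapped with these, and the Log2FC was -0.32 (95% interval -0.68 to 0.05). *Mcm2*, *Mcm4*, *Mcm6* and *Mcm7* had Log2FC between -0.18 and 0.08. *Cdc45* and the GINS subunit *Gins2*, which turn the ring into an active helicase, had 0.132 to 3.19 CPM and wide intervals. Exons of *Gse1* on the other strand overlap 67.3% of the exonic length of *Gins2*, and with a kit that does not mark strand their reads cannot be told apart.

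The licensing factors *Cdc6* and *Cdt1* had few counts. *Cdc6*, which loads the MCM ring, had 0.884, 1.10 and 2.83 CPM as lowest, median and highest CONV-R value. Its GF levels were 0.390, 1.45, 0.762, 0.264 and 0.136 CPM, or 32 counts in all against 100 in CONV-R mice. The Log2FC of -1.13 had a 95% interval of -2.31 to 0.04, and it was -1.73 without GF replicate 2. *Cdt1*, its partner in loading, had 1.86, 3.53 and 6.19 CPM in CONV-R and 4.94, 2.12, 4.86, 0.925 and 8.68 CPM in GF mice. The 5 GF mice alone spanned more than the CONV-R range. *Orc1* to *Orc6*, which encode the origin recognition complex and are outside the 57 genes, had mean levels of 11.4 to 136 CPM in CONV-R mice, and none was called (Log2FC between -0.38 and 0.11).

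The clamp and its loader had no called gene. *Pcna*, the sliding clamp, had 33.6, 39.6 and 49.4 CPM as lowest, median and highest CONV-R value and 25.3, 30.8, 47.4, 38.5 and 35.9 CPM in GF mice. GF replicates 1 and 2 were below all CONV-R mice and the other 3 within their range (Log2FC -0.18, 95% interval -0.51 to 0.15). *Rfc2*, a subunit of the clamp loader, had 33.7, 35.4 and 43.5 CPM in CONV-R and 30.9, 37.7, 31.2, 32.0 and 18.2 CPM in GF mice. Its Log2FC of -0.29 (95% interval -0.62 to 0.05) went with 4 of 5 GF mice below every CONV-R mouse, and was -0.15 without GF replicate 6. Of *Rfc2*, 15.1% of the exonic length is overlapped by *Lat2* on the other strand. The flap nuclease *Fen1*, which trims Okazaki fragments, had 6 counts in CONV-R and 2 in GF mice and did not pass the filter. *Gm10143* on the other strand overlaps 78.8% of its exonic length, and the part of this in the low count was not tested.

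Deoxynucleotide synthesis had no called gene. *Rrm1*, the large subunit of ribonucleotide reductase, had 39.7, 47.6 and 57.6 CPM as lowest, median and highest CONV-R value and 54.3, 58.0, 58.0, 44.2 and 57.9 CPM in GF mice. All but GF replicate 5 were at the upper end of the CONV-R range or just above it (Log2FC 0.17, 95% interval -0.10 to 0.44). The small subunit *Rrm2*, which is made in S phase, had 0.661 to 4.89 CPM over the 11 mice, and thymidylate synthase *Tyms* 5.51 to 11.8 CPM. Neither passed the test (Log2FC -0.49 and -0.09).

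Histone supply and S phase control had no called gene either. *Slbp*, which binds the stem-loop of histone mRNAs, had 23.0, 54.6 and 61.2 CPM as lowest, median and highest CONV-R value and 41.1, 52.1, 64.5, 48.9 and 46.1 CPM in GF mice. Its lowest value was in CONV-R replicate 3, the mouse in which 7 of the 23 replication genes were at their highest. *Chaf1b*, a subunit of the histone chaperone CAF-1, had 3.28, 3.76 and 5.03 CPM in CONV-R and 3.90, 3.28, 2.57, 2.64 and 4.07 CPM in GF mice (Log2FC -0.28, 95% interval -0.86 to 0.30). The S phase repressor *E2f8* had 0.969, 1.87 and 2.95 CPM in CONV-R and 1.62, 1.55, 1.33, 0.264 and 0.678 CPM in GF mice, and *Gm2788* overlaps 11.2% of its exonic length. Here GF replicates 5 and 6 were below all CONV-R mice and the other 3 within their range (Log2FC -0.72, 95% interval -1.70 to 0.27). *Ccne2*, the cyclin that starts S phase with Cdk2, had 6.998, 8.17 and 12.7 CPM in CONV-R and 5.65, 12.0, 6.76, 6.48 and 12.6 CPM in GF mice, with *Ints8* overlapping 17.4% of its exonic length. Its groups overlapped widely. *Uhrf1*, which maintains DNA methylation behind the fork, and *Dtl*, a substrate receptor that directs Cdt1 to degradation, had Log2FC of 0.13 and -0.48.

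**Figure D3:**
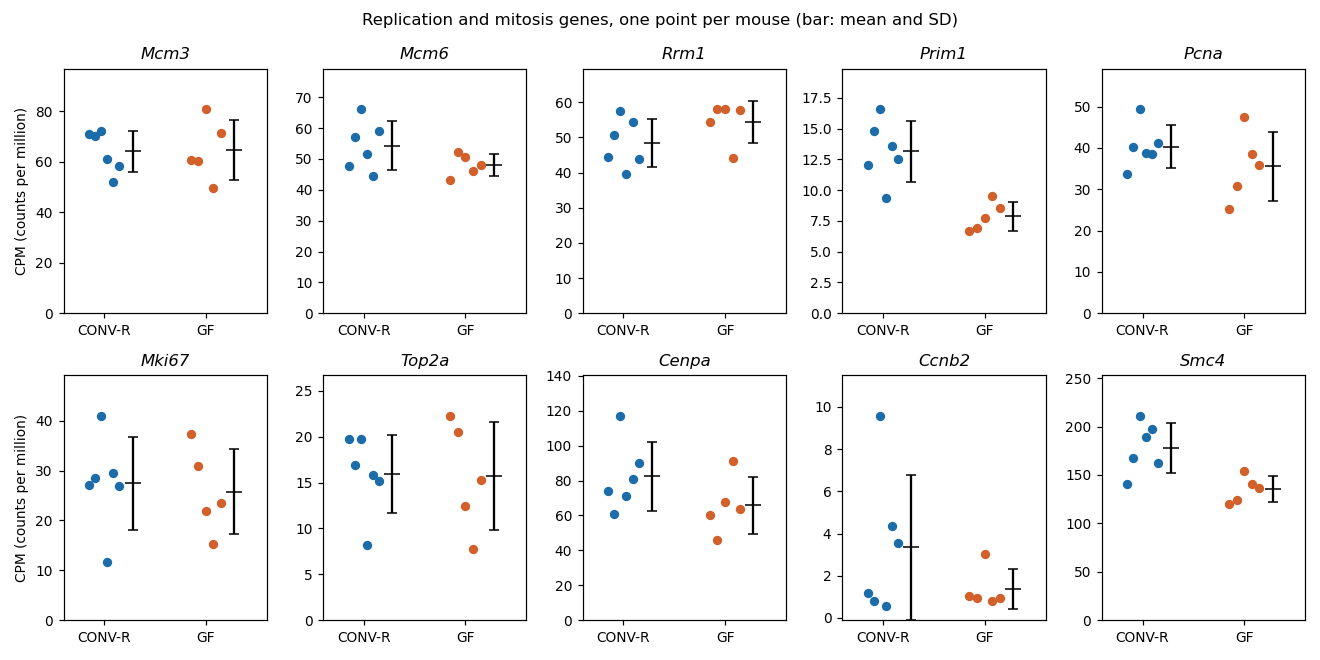
CPM (y axes, from 0 except where an SD bar reaches below it) of 5 replication genes (top) and 5 mitosis genes (bottom) with 1 point per mouse, 6 CONV-R in blue and 5 GF in orange; bars are mean and SD. All 10 genes overlap between groups, and of these *Prim1* alone was called.

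Among mitosis genes, the condensin subunit *Smc4* had the highest level and the smallest p. *Smc4* (chr3:69004738-69034623 on GRCm38, plus strand), an ATPase of the complexes that compact chromosomes, was at the 91st percentile of tested genes per length and at 141, 178 and 211 CPM as lowest, median and highest CONV-R value. In GF mice it was at 120, 124, 154, 141 and 136 CPM, so that 3 of 5 GF mice were below every CONV-R mouse. With a Log2FC of -0.40 ± 0.12 (SE), an unadjusted p of 0.00375 and an adjusted p of 0.05001, just above the threshold, it was not called (edgeR's quasi-likelihood test, Benjamini-Hochberg). DESeq2 called it (adjusted p = 0.0263) and voom did not. It was also called without CONV-R replicate 1 (Log2FC -0.46, adjusted p = 0.0220) and without GF replicate 4 (Log2FC -0.45, adjusted p = 0.0429). Over 20 alternatives 7 called it, and its Log2FC lay between -0.46 and -0.34.

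The proliferation antigen and the mitotic topoisomerase were lowest in the same mice, with overlapping groups. *Mki67*, whose protein Ki-67 coats mitotic chromosomes, had 11.7, 27.7 and 40.9 CPM as lowest, median and highest CONV-R value and 37.4, 30.8, 21.9, 15.3 and 23.5 CPM in GF mice. *Top2a*, which untangles sister chromatids, had 8.20, 16.4 and 19.8 CPM in CONV-R and 22.2, 20.5, 12.5, 7.80 and 15.3 CPM in GF mice. Both were lowest in CONV-R replicate 4 and GF replicate 5 and high in CONV-R replicate 3 and GF replicate 1. Their Log2FC were -0.08 (95% interval -0.62 to 0.47) and -0.02 (-0.56 to 0.53). Over the 11 mice their log2 CPM correlated with Pearson's r of 0.93 and Spearman's rho of 0.87, and with r of 0.80 without CONV-R replicate 4 and GF replicate 5. Within the 6 CONV-R mice r was 0.94 and rho 0.60, and r was -0.26 without replicates 3 and 4, so that the relation there rests on these mice. Both values of a mouse come from the same library.

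Of the mitotic cyclins, *Ccnb2* differed most between mice. It had 0.562, 2.37 and 9.58 CPM as lowest, median and highest CONV-R value and 1.04, 0.966, 3.05, 0.793 and 0.949 CPM in GF mice. CONV-R replicates 3, 5 and 6 were above every GF mouse, and the other 3 lay within or below the GF range. Its Log2FC of -1.25 had a 95% interval of -2.64 to 0.14 (unadjusted p = 0.0741). The highest value was that of CONV-R replicate 3, without which the Log2FC was -0.60. Over 18 alternatives the Log2FC lay between -1.79, without GF replicate 4, and -0.40, with the replicate block, which leaves out CONV-R replicate 3, and none called it. *Cdk1*, the kinase that cyclin B activates, and *Ccna2*, the cyclin of S phase and early mitosis, were at 2.38 to 9.58 and 2.64 to 8.47 CPM with Log2FC of 0.15 and -0.12. *Ccnb1*, the main mitotic cyclin, did not pass the filter, with 8 counts in all CONV-R and 17 in all GF mice. The partners of the anaphase-promoting complex *Cdc20* and *Ube2c* had 58 and 36 counts in CONV-R and 50 and 27 in GF mice. On the other strand, *Tnnc2* overlaps 22.8% of the exonic length of *Ube2c* and *Exosc9* 12.5% of that of *Ccna2*. The kinesin *Kif2c* had 14 and 10 counts, of which 10 were in CONV-R replicate 1 and 7 in GF replicate 6. These 4 genes and *Fen1* were the 5 below the filter.

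Kinases of the spindle checkpoint and of mitotic entry were not called. *Bub1b*, which encodes the checkpoint protein BubR1, had 11.6, 15.6 and 18.3 CPM as lowest, median and highest CONV-R value and 14.7, 16.8, 12.2, 14.0 and 10.99 CPM in GF mice. It was the third most abundant gene of mitosis per length after *Smc4* and *Cenpa*, and its Log2FC was -0.18 (95% interval -0.55 to 0.18). *Aurka*, the centrosomal Aurora kinase, had 0.621, 1.21 and 2.56 CPM in CONV-R and 2.27, 0.386, 2.57, 1.19 and 3.53 CPM in GF mice. GF replicates 4 and 6 were above and GF replicate 2 below every CONV-R mouse (Log2FC 0.59, 95% interval -0.50 to 1.67, and 0.30 without GF replicate 6). The other checkpoint kinases *Bub1* and *Ttk*, the Polo kinase *Plk1* and the passenger complex genes *Aurkb*, *Birc5* and *Cdca8* had 0.132 to 5.89 CPM. Their Log2FC lay between -0.49 and 0.50 with SE of 0.52 to 0.66.

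Kinesins, kinetochores and spindle proteins gave differences of both signs. *Kif23*, the kinesin of the central spindle, had 1.12, 2.45 and 3.68 CPM as lowest, median and highest CONV-R value and 3.90, 4.64, 2.57, 3.83 and 2.03 CPM in GF mice. Here 3 of 5 GF mice were above the CONV-R range (Log2FC 0.47, 95% interval -0.29 to 1.23). *Kif20b*, which acts late in cytokinesis, had 8.52, 11.5 and 16.6 CPM in CONV-R and 8.97, 8.98, 12.2, 10.05 and 13.8 CPM in GF mice, all within the CONV-R range.

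*Cenpa*, the histone H3 variant that marks centromeres, had the second highest level of the mitosis genes. It had 60.8, 77.7 and 117 CPM as lowest, median and highest CONV-R value and 60.4, 46.1, 67.7, 91.2 and 63.5 CPM in GF mice. Only GF replicates 1 and 2 were below the CONV-R range (Log2FC -0.32, 95% interval -0.70 to 0.05, and -0.20 without CONV-R replicate 3). The kinetochore genes *Cenpe*, *Cenpf*, *Ndc80* and *Nuf2* had Log2FC of 0.23, 0.17, -0.25 and 0.57.

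Of the 52 genes, 2, *Tpx2* and *Gtse1*, had a positive Log2FC and an unadjusted p under 0.05, against 1612 of all 12905 tested genes. Neither was called, and of the 5 spindle proteins 3 were higher and 2 lower in sign. *Tpx2*, the activator of Aurora A on spindle microtubules, had 2.17, 3.56 and 5.16 CPM as lowest, median and highest CONV-R value and 3.90, 6.47, 5.62, 2.91 and 11.4 CPM in GF mice (Log2FC 0.74, unadjusted p = 0.0441, adjusted p = 0.204). *Gtse1*, a microtubule protein of G2 and mitosis, had 0.621, 1.21 and 1.47 CPM in CONV-R and 1.36, 2.90, 4.09, 0.397 and 2.98 CPM in GF mice (Log2FC 1.03, unadjusted p = 0.0482, adjusted p = 0.214). Without GF replicate 6, the library with the most Kupffer cell RNA, the Log2FC of *Tpx2* was 0.39 (adjusted p = 0.527). In both genes, GF replicates 2, 4 and 6 were above all CONV-R mice and GF replicate 5 was the lowest GF mouse. *Tacc3*, which links kinetochore fibres, had 3.21, 6.44 and 8.10 CPM in CONV-R and 3.96, 7.24, 4.57, 4.50 and 2.31 CPM in GF mice (Log2FC -0.45). *Anln*, the scaffold of the contractile ring, had 3.05, 3.96 and 7.86 CPM in CONV-R and 3.12, 6.28, 3.33, 1.98 and 3.12 CPM in GF mice (Log2FC -0.36). Both overlapped between groups, and so did *Ect2*, *Nusap1*, *Hmmr* and *Kif11*, whose Log2FC lay between -0.21 and 0.26.

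For each mouse the log2 CPM of the 23 replication genes and of the 29 mitosis genes were averaged. CONV-R replicates 1 to 6 had replication levels of 3.32, 3.35, 3.49, 3.26, 3.44 and 3.26, and GF replicates 1, 2, 4, 5 and 6 had 3.05, 3.20, 3.20, 2.74 and 3.24. The ranges did not overlap, although GF replicate 6 was only just below the lowest CONV-R mice, and GF replicate 5 was far below all others. The means were 3.35 ± 0.094 (SD, n = 6) and 3.09 ± 0.21 (SD, n = 5). The gap was smaller in the more strongly expressed genes. In the 14 replication genes with a mean of at least 5 CPM it was -0.10 instead of -0.27 and the ranges overlapped, at 4.52 to 4.74 in CONV-R and 4.40 to 4.67 in GF mice. They also overlapped with the median over genes (a difference of -0.23), counts drawn down to the lowest total (-0.26), genes scaled to unit SD or the deposited log2 values. With any 1 mouse left out the ranges stayed apart, with differences of -0.31 to -0.18. The summed CPM of the 23 genes was 430 to 491 in CONV-R and 397 to 489 in GF mice.

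Mitosis levels overlapped throughout. CONV-R replicates 1 to 6 had 2.21, 2.04, 2.64, 1.499, 2.22 and 2.06, and the GF mice had 2.12, 2.46, 2.28, 1.55 and 1.90. The means of 2.11 ± 0.37 (SD, n = 6) and 2.06 ± 0.35 (SD, n = 5) differed by -0.05, less than the spread within either group. The difference had no stable sign, at 0.08 without GF replicate 5, 0.06 without CONV-R replicate 3 and 0.04 with the median over genes, and it was -0.17 without CONV-R replicate 4. CONV-R mice thus covered a range of mitosis levels about as wide as all mice together, while their replication levels lay close to each other.

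**Figure D4:**
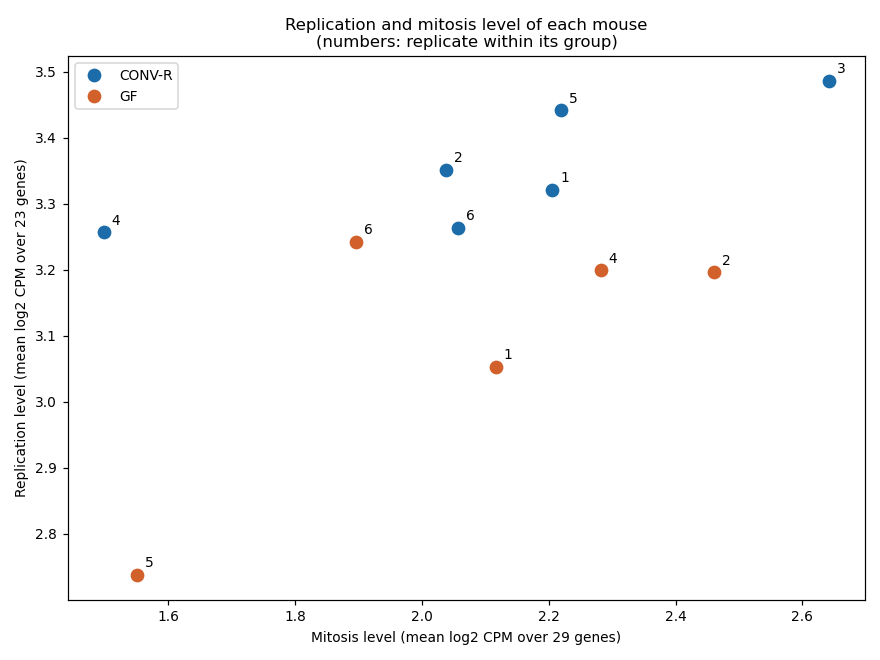
Replication level (y axis) against mitosis level (x axis) of each mouse, both as mean log2 CPM, with CONV-R mice in blue and GF mice in orange and the replicate number beside each point. The 5 GF mice lie below the 6 CONV-R mice on the y axis (at most 3.24 against at least 3.26) and among them on the x axis.

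Replication minus mitosis was 1.12, 1.31, 0.84, 1.76, 1.22 and 1.21 log2 units in CONV-R and 0.94, 0.74, 0.92, 1.19 and 1.35 in GF mice. The means of 1.24 ± 0.30 (SD, n = 6) and 1.02 ± 0.24 (SD, n = 5) differed by -0.22, with overlapping ranges. The difference was -0.12 without CONV-R replicate 4 and -0.30 without GF replicate 6. With the genes of at least 5 CPM, 14 replication and 12 mitosis genes, the difference was 0.01. CONV-R replicate 4 had the largest value, with the lowest mitosis level of all mice and a replication level at the low end of the CONV-R mice.

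Single mice led the extremes of many genes. CONV-R replicate 3 had the highest value of 13 of 29 mitosis genes and 7 of 23 replication genes. CONV-R replicate 4 had the lowest value of 9 mitosis genes and 1 replication gene, and GF replicate 5 the lowest of 11 mitosis and 6 replication genes. GF replicate 5 had the lowest total, 7242717 counts, and GF replicate 6 and CONV-R replicate 3 the next, 7819846 and 7922855 counts. The mice with the most extreme values in both directions were thus among the shallowest. With counts drawn down to the lowest total, mitosis levels ranged from 1.62 to 2.71 in CONV-R and from 1.65 to 2.55 in GF mice. The part of depth in the extremes of single genes was not tested. CONV-R replicate 4, with 12290352 counts, was not shallow.

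With group means removed, 27 of 29 mitosis genes correlated positively over the 11 mice with the mean of the other mitosis genes, with a median r of 0.50. Of the replication genes 17 of 23 did so with the mean of theirs, with a median r of 0.27. With the mean of the respective other group of genes the median r was about as high, 0.45 for mitosis and 0.25 for replication genes. With the rest of their own group, *Rrm1* had r of 0.86 and *Mki67* 0.84, while *Prim1* and *Smc4* had -0.03 and 0.03. The lower panel of the heat map shows the same columns of high and low values in many mitosis genes, and the upper panel a looser pattern. Genes of a library share its depth and its cells. Between the mitosis and replication level the correlation over 11 mice was r = 0.57 (rho = 0.30), and 0.36 without CONV-R replicate 4 and GF replicate 5. Within the 6 CONV-R mice it was r = 0.81 (rho = 0.83), and 0.57 without replicates 3 and 4.

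**Figure D5:**
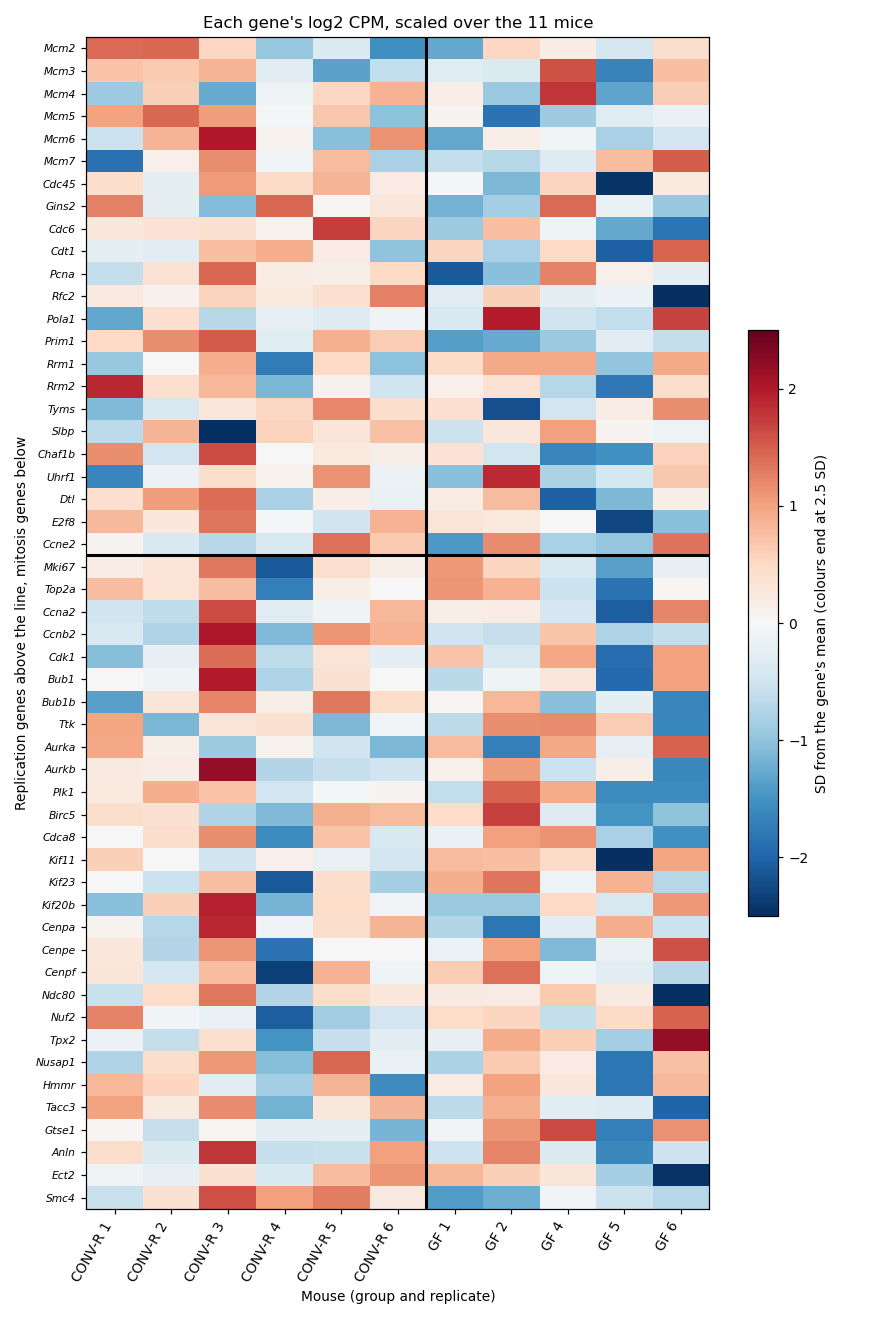
Log2 CPM of the 52 genes (rows, replication genes above the horizontal line and mitosis genes below) in the 11 mice (columns, CONV-R left of the vertical line), as SD from each gene's mean; red is high and blue low. CONV-R replicate 3 is high for most mitosis genes, and CONV-R replicate 4 and GF replicate 5 are low, with 9 and 11 of the 29 mitosis genes at their lowest there.

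Further genes of the cell cycle were taken from 4 lists. Of 40 other replication genes, all tested, 2 fell and 1 rose in GF mice at an adjusted p under 0.05 (edgeR's quasi-likelihood test, Benjamini-Hochberg), with a median Log2FC of -0.20 and 28 of 40 lower in sign. The share called, 7.50%, was that of all tested genes (7.48%), and 25.0% had an unadjusted p under 0.05 against 23.0%. *Wdhd1*, which ties polymerase alpha to the helicase, had 10.4, 13.0 and 14.9 CPM as lowest, median and highest CONV-R value and 7.41, 5.60, 5.81, 8.20 and 6.78 CPM in GF mice. The groups did not overlap (Log2FC -0.93, adjusted p = 0.00567), and all 20 alternatives called it. *Dut*, the dUTPase that keeps uracil out of DNA, had 22.7, 35.0 and 56.0 CPM in CONV-R and 18.2, 21.1, 20.4, 24.2 and 24.7 CPM in GF mice (Log2FC -0.75, adjusted p = 0.0267). Its groups overlapped through CONV-R replicate 1, and its call was lost when CONV-R replicate 4 or 5 or GF replicate 1, 2 or 4 was left out (adjusted p between 0.0501 and 0.0680). *Rpa1*, the large subunit of the single-strand binding protein, rose from 61.7, 70.0 and 76.7 CPM in CONV-R to 99.7, 95.1, 98.9, 111 and 127 CPM in GF mice (Log2FC 0.63, adjusted p = 0.00227), with no overlap.

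The other lists held few calls. Of 40 other mitosis genes 30 were tested and 0 called by edgeR, 4 had an unadjusted p under 0.05, and DESeq2 and voom each called 1, *Incenp*. Of 17 G1 cyclins, kinases and E2F factors 16 were tested and 0 called by edgeR, DESeq2 or voom, with 2 at an unadjusted p under 0.05. Of 23 brakes on the cell cycle 21 were tested and 2 rose (9.52%, against 4.80% of all tested genes). *Cdkn1a*, which encodes the Cdk inhibitor p21, had 7.23, 16.0 and 38.3 CPM in CONV-R and 111, 83.8, 86.0, 93.7 and 122 CPM in GF mice (Log2FC 2.47, adjusted p = 0.000108). The antiproliferative gene *Btg2* had 35.7, 38.9 and 57.8 CPM in CONV-R and 68.7, 66.8, 59.0, 69.3 and 54.9 CPM in GF mice (Log2FC 0.62, adjusted p = 0.0112). At an unadjusted p under 0.05 there were 6 of the 21 brakes (28.6%, against 23.0% of all tested genes), 3 higher and 3 lower, the latter *Rb1*, *Rbl1* and *Gadd45a* with Log2FC of -0.26, -0.39 and -1.0001 (adjusted p of 0.112, 0.0847 and 0.0586). DESeq2 called *Gadd45a* lower (adjusted p = 0.0208) and *Gadd45g* higher (Log2FC 0.81, adjusted p = 0.0456). *Cdkn1a* was higher in every GF mouse than in every CONV-R mouse. *Mki67* and *Top2a* overlapped between groups, whereas the replication genes *Prim1*, *Wdhd1* and *Dut* were called lower and *Rpa1* higher. A link of any of these to *Cdkn1a* was not tested.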

How the data were processed

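The 57 genes and all gene lists were chosen with earlier results of these data known. The authors trimmed the reads, aligned to GRCm38 using STAR, ran featureCounts for counts per gene and left out 1 GF library with few mapped reads. The counts they deposited are not normalized; the annotation release and strand setting are not given in the sources used here. The log2 values the authors deposited were normalized with the DESeq method and served only as an alternative.

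In R 4.3.3, edgeR 4.0.16 (filterByExpr, TMM, quasi-likelihood test, Benjamini-Hochberg adjustment over 12905 genes, threshold 0.05) compared 5 GF with 6 CONV-R mice. Its p-values set the difference between groups against counting error and the spread between mice. Libraries held 7242717 to 16164588 counts. The SE of a Log2FC covers counting error and the spread between mice. Log2 CPM used a prior count of 2. DESeq2 1.42.0, voom (limma 3.58.1), other filters and scalings, drawn-down counts, a replicate block and each mouse left out were alternatives; levels over genes of at least 5 CPM and from drawn-down counts were added after seeing the data. Fits were tested on simulated data.

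Positions and lengths came from GENCODE M21 (29146 of 29307 genes matched), promoters from RefSeq GRCm38.p6. Values per mouse are given for genes with an adjusted p under the threshold and, per role, for the gene with the smallest p and that with the highest level per length; *Mcm6*, *Top2a* and *Gtse1*, and the 6 promoters, were picked after their values were seen.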

Additional observations from a re-analysis of the deposited data

Results flagged for a closer look

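In 54 groups of values, 1 mouse was set against the others of its group, and 4 mice stood apart by Dixon's criterion, which flags about 1 group in 20 by chance. *Cdc6* was at 2.83 CPM in CONV-R replicate 5, with 1.24 CPM as the next value. *Rfc2* was at 43.5 CPM in CONV-R replicate 6, with 37.2 CPM next. *Rrm1* was at 44.2 CPM in GF replicate 5, with 54.3 CPM next. *Ccnb2* was at 3.05 CPM in GF replicate 4, with 1.04 CPM next, and these rest on few counts.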

How the results depend on the processing

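Over all genes, 965 calls became 1527 with DESeq2, and 622 to 1260 with 1 mouse left out. Among replication genes 1 was called lower, and 0 to 1 with 1 mouse left out; *Prim1* was called in 15 of 20 alternatives. Among mitosis genes 0 were lower, and 0 to 1 with 1 mouse left out; 1, *Smc4*, was lower with DESeq2, at least 10 counts in every library, the robust fit or drawn-down counts. No member was called higher in any alternative. Of the other mitosis genes 0 were lower, against 1 with DESeq2, voom or drawn-down counts, 2 without a filter and 0 to 1 with 1 mouse left out. With 1 mouse left out, 1 to 5 other replication genes were lower, 0 to 1 G1 genes higher and 0 to 1 brakes lower; the last was 1 with DESeq2 or without a filter. The cause of these changes was not tested. Replication levels of GF and CONV-R mice differed by -0.27, and by -0.10 over genes of at least 5 CPM. With E2F as 8 letters, 45.0% of replication and 3.45% of mitosis promoters held a match.

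Same-numbered mice are different animals, and what the numbers stand for is not given in the sources used here. The deviations of same-numbered mice from their group means correlated with r of -0.01 to 0.20. Mice of unlike number were not compared, so these values cannot tell whether same-numbered mice shared a processing step. With the replicate block, 0 replication genes (*Prim1* Log2FC -0.66), 1 mitosis gene (*Smc4*) and 2 other mitosis genes were lower, and 1101 genes were called in all, against 931 in the same 10 libraries without the block.

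Genes with a Log2FC near 0 changed sign. *Mcm3* had -0.0082 without a filter and -0.0047 with drawn-down counts, and -0.085 to 0.090 with 1 mouse left out. *Cdt1* had -0.017 with voom, -0.030 with drawn-down counts and -0.27 to 0.37 with 1 mouse left out. *Slbp* had -0.091 with the block, -0.093 in its libraries without it and -0.093 to 0.12 with 1 mouse left out. *Mki67* had 0.018 with voom, 0.076 with the block, 0.068 in its libraries without it and -0.25 to 0.068 with 1 mouse left out. *Kif20b* had 0.031 with the block, 0.030 without it and -0.20 to 0.030 with 1 mouse left out, and *Ccne2* -0.22 to 0.069. With 1 mouse left out, *Anln* ranged from -0.66 to -0.15, *Tacc3* from -0.69 to -0.30 and *Pcna* from -0.31 to -0.078, none of them called. The intervals of genes at a few CPM often include a 2-fold difference, and counting error and spread between mice both enter them.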
